A study of Mus musculus with 2 samples.

Results

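The red cell membrane and skeleton genes described here are 9 genes chosen by name, Spnb1, Ank1, Add1, Add2, Slc4a1, Rhag, Gypc, Ermap and Kel, out of 22372 protein-coding genes in the mouse annotation of the mm9 assembly. DNase I hypersensitive peaks belong to a gene when the peak's summit lies in the gene body or within 20 kb on either side, and 677 of the 400000 peaks deposited for the study met that rule. DNase-seq maps places where chromatin is open enough for DNase I to cut, which include most active promoters and enhancers. The G1E-ER4 sample is a mouse line of strain 129, labelled male, described as erythroid cells in which Gata1 has been restored, and it was taken after 24 h in 10 nM beta-estradiol to induce differentiation. The G1E sample is the Gata1-deficient erythroid progenitor line of the same strain, sex and stem cell origin, and it was left untreated. GATA1 is the main transcription factor of red cell maturation. There was 1 sample per state and 2 peak lists per sample, called G1E-ER4 lists 1 and 2 and G1E lists 1 and 2. Nothing in the labels says that the lists came from separate cultures, so their spread may be technical. With no estradiol-treated G1E sample and no untreated G1E-ER4 sample, the line, the restored Gata1 and the estradiol cannot be told apart.

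The red cell membrane is held up by a flat mesh of spectrin tetramers joined at short actin filaments. Ankyrin ties the beta subunit of spectrin to the anion exchanger band 3, and adducin caps the actin filaments and helps to fasten them to spectrin. Transport and blood group proteins sit in the lipid layer above, several of them in complexes anchored to this mesh, and inherited loss of spectrin, ankyrin or band 3 gives fragile, spherical red cells. Spnb1 encodes erythroid beta-spectrin, Ank1 ankyrin-1, and Add1 and Add2 alpha- and beta-adducin, and they are called the skeleton genes below. Slc4a1 encodes band 3, Rhag the Rh-associated glycoprotein, Gypc glycophorin C, Ermap the erythroblast membrane-associated protein that carries the Scianna blood group in humans, and Kel the Kell metallopeptidase, and these are called the transporter and surface genes.

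Each list held 100000 peaks ranked by a signal that the authors did not state to be scaled between lists. Values are therefore given as the percentile of a peak's signal within its own list, with 100 for the strongest, and never as a fold between states. Over the 29568 merged sites that had a peak in all 4 lists, the G1E-ER4 lists differed from each other by a median of 7.91 percentile points and the G1E lists by a median of 4.07. An exact permutation of 2 lists against 2 cannot give a two-sided p below 0.333, so no p-value is given, and a difference is called only where both lists of one state lie beyond both lists of the other. Promoters of 6 erythroid regulators (Gata1, Klf1, Tal1, Zfpm1, Nfe2 and Gfi1b) had a peak in all 4 lists in 4 cases, with Klf1 and Zfpm1 missing at least 1 list, against 1 of 4 T cell, 2 of 4 B cell and 1 of 4 neural markers. Of all protein-coding genes 45.6% had such a peak, and sets of 4 to 6 genes are too small to identify the cells. Peaks of G1E-ER4 list 1 were narrower than those of list 2, with median widths of 579 and 836 bp, against 520 and 646 bp in the G1E lists, and every list is given separately below.

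The promoters of the members come first, because the bases before them show what each start carries. The 120 bases before an annotated start are printed for 7 genes, 1 start each, read from the mm9 genome on the strand of the gene, 5′ to 3′. Capitals mark matches to the GATA letters AGATAA or TGATAA, to the KLF letters CCNCNCCC, or to the NFE2 letters TGANTCA, on either strand. No bases of Gypc are printed, and the other starts of Ank1, Add1, Spnb1 and Ermap are not shown, among them further starts with peaks. Annotated starts of a member that lie close together are counted as 1 start, read at the most upstream of them. The printed windows are therefore a selection, and the counts over all starts follow them.
Slc4a1 (chr11:102226595-102226714, minus strand): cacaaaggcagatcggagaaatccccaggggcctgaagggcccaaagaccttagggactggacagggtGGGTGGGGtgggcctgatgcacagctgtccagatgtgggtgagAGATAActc
Add2 (chr6:86027958-86028077, plus strand): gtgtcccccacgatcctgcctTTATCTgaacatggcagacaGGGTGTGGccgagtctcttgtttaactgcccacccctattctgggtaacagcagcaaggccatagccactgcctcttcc
Kel (chr6:41654339-41654458, minus strand): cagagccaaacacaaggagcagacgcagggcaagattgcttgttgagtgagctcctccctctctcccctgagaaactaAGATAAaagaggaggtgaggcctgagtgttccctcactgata
Ermap (chr4:118862617-118862736, minus strand): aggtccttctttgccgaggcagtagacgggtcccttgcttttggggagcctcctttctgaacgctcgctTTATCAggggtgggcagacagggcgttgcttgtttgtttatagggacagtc
Rhag (chr17:40947955-40948074, plus strand): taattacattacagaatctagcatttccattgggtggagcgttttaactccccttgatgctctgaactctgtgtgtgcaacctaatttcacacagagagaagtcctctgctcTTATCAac
Ank1, the second of its starts (chr8:24145451-24145570, plus strand): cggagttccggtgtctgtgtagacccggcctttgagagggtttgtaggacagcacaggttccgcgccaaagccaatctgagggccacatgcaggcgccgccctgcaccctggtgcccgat
Add1, the first of its starts (chr5:34916193-34916312, plus strand): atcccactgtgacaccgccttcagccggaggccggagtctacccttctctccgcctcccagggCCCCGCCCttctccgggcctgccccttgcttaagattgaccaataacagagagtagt
Spnb1, 30 bases around the match before the inner of its 2 outer starts (chr12:77811053-77811082, minus strand): atgtccctcctcAGATAAtgttatttatat
Over all 22 starts of the members counted in this way, 9 (40.9%) had GATA letters in the 120 bases before them, belonging to 8 of the 9 genes. Of the 12 starts with a summit within 1000 bp in all 4 lists, 4 (33.3%) had them, and these were starts of Spnb1, Slc4a1, Ermap and Kel. The matches of Add1 and Gypc stood before other starts than their open ones. Those starts had no summit in any list, or a single weak one at 16.6 in G1E-ER4 list 2. The same letters stand before 6.32% of 46028 protein-coding starts in the genome. Those genome starts were each counted singly, even where close together, so member and genome shares differ in unit. KLF letters were no more frequent before member starts, at 27.3% against 39.2% of all starts, and NFE2 letters stood before none of the 22, against 2.74%. A match is a description of the letters and not evidence that a factor binds there.

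Open chromatin lay at the promoters of most members in both states. A peak summit lay within 1000 bp of a start in all 4 lists for 7 of the 9 genes, against 45.6% of all 22372 protein-coding genes. The exceptions were Add2, which missed G1E list 2, and Rhag, which missed list 1 of each state. Among the 7, only Ermap had both G1E-ER4 lists above both G1E lists at its strongest promoter peak, an order found at 12.7% of the 10198 genes with such peaks. None of the 7 had both G1E-ER4 lists below both G1E lists, against 13.9% of those genes.

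Spnb1 (chr12:77681475-77811534, minus strand) had its outer promoter open in both states. The peak there stood at the percentiles 93.0 and 98.3 in G1E-ER4 lists 1 and 2, against 99.3 and 98.1 in G1E lists 1 and 2. The states overlapped. All 4 summits fell 119 to 145 bp upstream of the inner of the 2 neighbouring starts, and the GATA letters printed above lie between those summits and that start.

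Spnb1 has a further annotated start deep inside the gene, used by the single transcript Spnb1-201, and there the states parted. The site stood at 18.4 and 78.8 in the G1E-ER4 lists, against 96.2 and 94.6 in the G1E lists. Both G1E-ER4 values were below both G1E values, but they also lay 60.3 points apart, so the size of the difference rests on which G1E-ER4 list is read. Its best summit, 356 bp upstream of that start, holds none of the 3 motifs in the 121 bases around it.
Spnb1 internal site (chr12:77751200-77751320, minus strand): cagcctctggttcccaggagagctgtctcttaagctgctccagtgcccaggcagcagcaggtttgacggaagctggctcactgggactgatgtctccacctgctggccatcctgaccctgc

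Inside the Spnb1 introns, the strongest site of all 4 lists away from starts stood at 94.1 and 91.6 in the G1E-ER4 lists, against 92.9 and 97.2 in the G1E lists. It lies 24.1 kb upstream of the internal start. The states overlapped at this site, which holds GATA letters near its summit.
Spnb1 intron site (chr12:77774903-77775023, minus strand): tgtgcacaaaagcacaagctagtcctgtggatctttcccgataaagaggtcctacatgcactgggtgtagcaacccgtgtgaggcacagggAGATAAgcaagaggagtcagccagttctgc
Within 60 bp of a summit, GATA letters were found at 12.1% of all 400000 peaks.

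A pair of other Spnb1 sites were also lower in G1E-ER4. An intron site 29.3 kb upstream of the internal start stood at 63.9 and 47.5 in the G1E-ER4 lists, against at 84.7 and 91.3 in the G1E lists. An exon site 46.5 kb downstream of it stood at 21.1 and 29.9 in the G1E-ER4 lists, against at 56.7 and 52.6 in the G1E lists. The states did not overlap at either site. At the merged exon site, however, the values came from peaks with different summits. These lay near chr12:77704790 in both G1E-ER4 lists, at chr12:77704425 in G1E list 1 and at chr12:77705657 in G1E list 2. Near the last place G1E list 1 had only a peak at 15.2, so no summit there was shared between the states. In the 3′ part of the gene 1 wide site stood at 82.6 and 82.7 in the G1E-ER4 lists, against 94.1 and 84.0 in the G1E lists. Both G1E-ER4 values were below both G1E values, by less than 10 points on average. The strongest summit lay near chr12:77697865 in both G1E-ER4 lists and near chr12:77694998 in both G1E lists. G1E list 1 also had a peak at 86.4 with its summit at chr12:77697512, close to the G1E-ER4 summits, and G1E-ER4 list 1 had a weaker one at 33.3 with its summit at chr12:77695288, close to the G1E summits.

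Spnb1 also held 8 sites found in both G1E lists and in no G1E-ER4 list, out of 53 sites (15.1%), and 0 of the opposite kind. These values have to be read against chromosome 12, where G1E-only sites made up 10.2% of all sites and G1E-ER4-only sites 0.55%, while over the whole genome the shares were 3.99% and 2.35%. Shared sites on chromosome 12 were likewise lower in G1E-ER4 in 22.0% of cases, against 8.88% over the genome. The excess was measured over the chromosome as a whole, and its part in the values of Spnb1 was not tested.

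Ank1 (chr8:24085316-24260969, plus strand) has several annotated starts, used in different tissues, and the annotation does not say which is the erythroid one. Around the second of them, shared by transcripts Ank1-007, Ank1-008 and Ank1-011, a peak stood at 90.0 and 96.0 in the G1E-ER4 lists, against 92.4 and 92.6 in the G1E lists. The states overlapped, and the 4 summits lay 1 to 24 bp upstream of the start, in the sequence printed above. The first start, far upstream, was weaker, at 73.9 and 81.3 in the G1E-ER4 lists, against 69.1 and 26.6 in the G1E lists. Both G1E-ER4 values there were above both G1E values, but the G1E lists differed from each other by more than the states' nearest values did, and without G1E list 2 the mean difference of 29.79 points is 8.56. The values also came from different summits. These lay 549 bp upstream of the start in G1E-ER4 list 1 and 91 bp downstream in G1E-ER4 list 2. In G1E lists 1 and 2 they lay 261 and 251 bp upstream.

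The remaining Ank1 starts differed from each other. The start of transcripts Ank1-001, Ank1-002, Ank1-015 and Ank1-201 had no summit within 1000 bp in G1E-ER4 list 1 and stood at 90.1 in G1E-ER4 list 2, against 91.2 and 86.6 in the G1E lists. The fourth start by position stood at 58.9 in G1E-ER4 list 1 with no summit in G1E-ER4 list 2, against 10.1 and 37.0 in the G1E lists. A start near the 3′ end, used by transcripts Ank1-012, Ank1-013 and Ank1-017, stood at 22.3 and 66.5 in the G1E-ER4 lists, against at 16.0 in G1E list 1, with no summit in G1E list 2.

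In G1E-ER4 list 2 the peak of highest rank in the Ank1 window was the one at the second start, at 96.0. In every other list it was a peak by the start of transcript Ank1-009. This peak lay 406 to 472 bp upstream of that start, at 99.9 and 86.5 in the G1E-ER4 lists, against 98.9 and 99.9 in the G1E lists. Only 37.9% of the 20-base words around its summit occur once in the genome, where the median over the 431 member summit windows is 97.8%. Tags of 20 bases that match several places were kept by the authors at a single best place, so tags counted at this peak may come from elsewhere. Of the 431 windows, 7 had under 50% unique words, and the only other one of these above the 80th percentile was in an intron of Add2.

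Away from starts, the strongest Ank1 site of all 4 lists lay 4.05 kb upstream of the start of Ank1-001, at 99.6 and 93.9 in the G1E-ER4 lists, against 90.3 and 95.8 in the G1E lists, with overlap. An intron site 7.35 kb upstream of the 3′ start was higher in G1E-ER4, at 57.4 and 69.5, against 28.6 and 32.1 in G1E. A site beyond the 3′ end was lower, at 64.8 and 78.0 in the G1E-ER4 lists against 83.2 and 82.7 in the G1E lists. Its mean difference of -11.56 points is -4.95 without G1E-ER4 list 1, under the 10 points of a call. Ank1 held 3 of the 4 G1E-ER4-only sites of all members, 4.41% of its 68 sites, against 1.99% of sites on chromosome 8. All 3 lay in introns 10.4 to 17.6 kb upstream of the 3′ start. Their percentiles were 42.8 and 2.59, 24.7 and 39.5, and 45.3 and 48.2 in G1E-ER4 lists 1 and 2, so all were weak. Ank1 also held 3 G1E-only sites, at 9.27 and 25.5, 5.46 and 29.7, and 52.1 and 48.1 in G1E lists 1 and 2. They were 4.41% of its sites, against 3.82% on chromosome 8.

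Add1 (chr5:34916313-34974957, plus strand) had the promoter of highest mean rank among the members. Its first start stood at 95.9 and 99.9 in the G1E-ER4 lists, against 99.4 and 99.8 in the G1E lists, with overlap and with summits 0 to 40 bp downstream of the start. The window holds KLF letters and no GATA letters in the 120 bases before that start. A site 7.75 kb upstream was higher in G1E-ER4, at 63.2 and 77.6 against 40.9 and 48.8 in G1E. The other 3 annotated starts of Add1 had no summit within 1000 bp in any list. The one G1E-ER4-only site of Add1, in an intron, stood at 19.8 and 25.8 in the G1E-ER4 lists. It was 3.85% of the 26 sites of Add1, against 2.32% on chromosome 5.

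Add2 (chr6:86028078-86069549, plus strand) encodes the beta subunit, whose expression is more restricted to blood and brain than that of Add1. At its annotated start the peak stood at 84.0 and 89.1 in the G1E-ER4 lists, against at 77.4 in G1E list 1, with summits 46 to 67 bp upstream. In G1E list 2 a peak at 89.4 spanned the start, but its summit lay 1.46 kb downstream, so it was not counted as a promoter peak. The merged site had a peak in every list, with overlap between states.

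A pair of Add2 sites were lower in G1E-ER4. The upstream one, 3.15 kb before the start, stood at 10.2 and 46.9 in the G1E-ER4 lists, against at 80.0 and 85.7 in the G1E lists, and the states did not overlap. Around its summit stand KLF letters and the NFE2 letters TGANTCA, the palindromic core bound by NF-E2 and AP-1 proteins, which were found within 60 bp of 4.45% of all summits.
Add2 upstream site (chr6:86024866-86024986, plus strand): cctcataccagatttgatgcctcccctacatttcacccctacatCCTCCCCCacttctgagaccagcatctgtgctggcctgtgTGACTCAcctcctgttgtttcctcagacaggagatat
The other lay 17.6 kb into the gene, at 65.6 and 64.7 in the G1E-ER4 lists against 86.1 and 90.8 in the G1E lists. Only 37.9% of the 20-base words at its summit were unique, so that difference carries the same limit as the repeated Ank1 peak. Add2 held 2 G1E-only sites, at 35.5 and 67.5 and at 24.4 and 66.9 in G1E lists 1 and 2. They were 6.90% of its 29 sites, against 3.80% on chromosome 6.

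**Figure D1:**
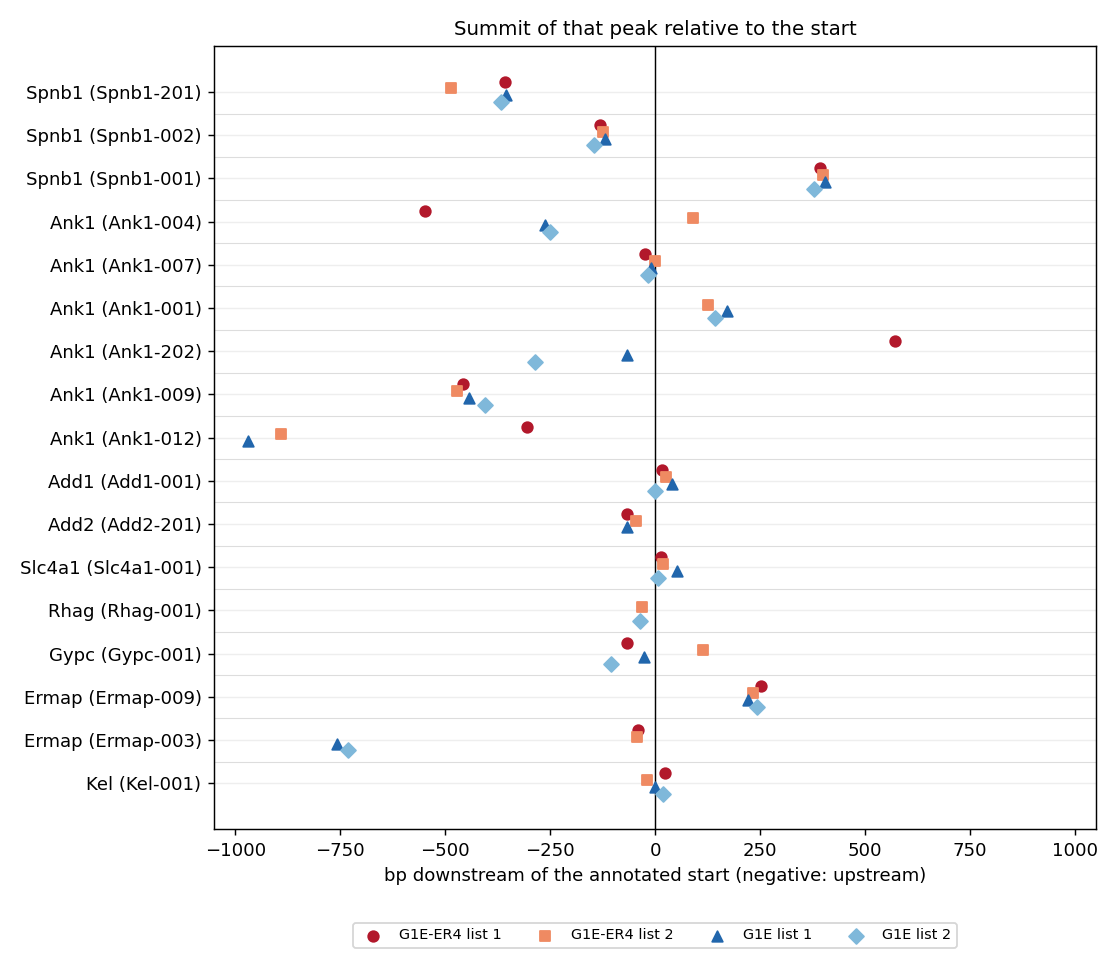
Distance of the summit of each promoter peak from its annotated start in bp (negative is upstream), with rows and points as in the plot of promoter percentiles. Summits of the 4 lists cluster closely at the Spnb1-002, Ank1-007, Add1, Slc4a1 and Kel starts, while the Ermap-003 start has G1E-ER4 summits at 40 and 42 bp and G1E summits at 757 and 731 bp upstream.

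Slc4a1 (chr11:102210138-102227517, minus strand) encodes the most abundant membrane protein of the red cell, and its start was open in both states. The promoter peak stood at 87.4 and 92.9 in the G1E-ER4 lists, against 92.4 and 91.3 in the G1E lists, with overlap and with summits 7 to 53 bp downstream of the start. List 1 of each state split off a second summit inside the gene, 1504 bp from the start and at 90.9 in G1E-ER4, and 1468 bp from it and at 92.4 in G1E. The site of highest mean rank away from the start lay 10.1 kb upstream, at 95.2 and 92.8 in the G1E-ER4 lists, against 91.2 and 89.9 in the G1E lists. Both G1E-ER4 values were above both G1E values there, by less than the 10 points used to call a shift.

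Between that site and the start, 2 upstream sites of Slc4a1 differed in opposite directions. The farther one, 7.93 kb upstream, stood at 24.7 and 80.8 in the G1E-ER4 lists, against 3.34 and 13.5 in the G1E lists. It was near the bottom of both G1E lists, and in G1E-ER4 the lists were 56.1 points apart. None of the 3 motifs stands in the 121 bases around its summit.
Slc4a1 upstream site (chr11:102234463-102234583, minus strand): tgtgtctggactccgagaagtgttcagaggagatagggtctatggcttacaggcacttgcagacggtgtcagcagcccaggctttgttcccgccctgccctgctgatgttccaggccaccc
The nearer one, 3.28 kb upstream, stood at 47.0 and 74.2 in the G1E-ER4 lists, against 79.7 and 85.0 in the G1E lists, with no overlap. Its mean difference of -21.72 points is -8.09 without G1E-ER4 list 1.

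Rhag (chr17:40948075-40977703, plus strand) had the weakest promoter of the members. No summit lay within 1000 bp of its start in list 1 of either state, and it stood at 56.3 in G1E-ER4 list 2 and at 63.3 in G1E list 2. Both of those summits were 32 to 36 bp upstream of the start, and the GATA letters shown lie between them and it. A stronger site 4.30 kb upstream, inside an intron of the neighbouring gene Crisp2, stood at 85.4 and 85.2 in the G1E-ER4 lists, against 83.1 and 86.0 in the G1E lists. The 4 values there spanned 2.89 points and the states overlapped.

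Gypc (chr18:32687976-32719688, minus strand) was open at its outermost start, at 88.5 and 91.3 in the G1E-ER4 lists, against 86.2 and 94.0 in the G1E lists, with overlap. Its strongest site away from starts lay in an intron, at 97.0 and 94.3 in the G1E-ER4 lists, against 91.2 and 93.7 in the G1E lists. Both G1E-ER4 values were higher, by less than 10 points on average. A second intron site, 3.09 kb upstream of the middle start, was called higher in G1E-ER4, at 84.9 and 86.2 against 63.1 and 79.2 in G1E, but its mean difference of 14.38 points is 6.32 without G1E list 1. That middle start itself had no summit within 1000 bp in any list, and the innermost start had 1 weak summit, at 16.6 in G1E-ER4 list 2.

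Ermap (chr4:118848062-118862616, minus strand) was the member whose promoter differed most plainly in form. At its main start the strongest peak stood at 92.1 and 88.8 in the G1E-ER4 lists, against 84.3 and 87.5 in the G1E lists. The summits lay 40 and 42 bp upstream in the G1E-ER4 lists, beside the GATA letters printed above, but 757 and 731 bp upstream in the G1E lists. The wider peaks of both G1E-ER4 lists and of G1E list 2 cover both places, so the highest point differed within 1 open site, and G1E list 1 had a separate peak at 77.8 near the start. A second start, of transcript Ermap-009, stood at 67.0 and 85.4 in the G1E-ER4 lists, against 82.2 and 86.1 in the G1E lists, with overlap. An intron site 8.40 kb downstream of that start was lower in G1E-ER4, at 41.2 and 55.0 against 61.7 and 76.9 in G1E. The highest peaks in the Ermap window, at 94.3 and 97.1 in the G1E-ER4 lists, against 97.2 and 98.9 in the G1E lists, lay at the promoter of the neighbouring gene Zfp691.

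Kel (chr6:41636329-41654338, minus strand) had 7 sites in all, and 1 of them, at its start, was in all 4 lists. It stood at 59.9 and 83.1 in the G1E-ER4 lists, against 76.6 and 89.1 in the G1E lists. The states overlapped, and the summits lay within 24 bp of the start.

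Skeleton genes carried more peaks than the transporter and surface genes in every list. Per 10 kb of window they had 1.80 and 2.30 peaks in the G1E-ER4 lists, against 2.35 and 2.60 in the G1E lists, and the transporter and surface genes had 1.16 and 1.28 in the G1E-ER4 lists, against 1.35 and 1.51 in the G1E lists. These set values are summed peaks over summed window length. The median of the densities of single genes, over all protein-coding genes, was 0.67 and 0.69 in the G1E-ER4 lists, against 0.64 and 0.70 in the G1E lists. That is an unlike measure, so the size of the gap to the genome cannot be read from these values. Summed over each set, peaks were more numerous in the G1E lists, but Spnb1 set this for the skeleton genes. Without Spnb1 the skeleton genes had 73 and 88 peaks in the G1E-ER4 lists, against 77 and 95 in the G1E lists, with overlap. Add1 had 18 and 16 against 8 and 12, and Slc4a1 had 10 and 12 against 8 and 7, the opposite order to the sums. The genes within a set differed widely, with 0.81 to 1.82 peaks per 10 kb at Add1 and 1.71 to 3.29 at Spnb1, and 0.34 to 0.86 at Kel and 1.83 to 2.57 at Ermap.

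The strongest peak per gene also ranked higher at skeleton genes. Its median percentile over the 4 skeleton genes was 97.5 and 97.1 in the G1E-ER4 lists, against 99.1 and 99.0 in the G1E lists. Over the 5 transporter and surface genes it was 94.3 and 92.9 in the G1E-ER4 lists, against 92.4 and 91.3 in the G1E lists. The median over all genes was 92.2 and 94.1 in the G1E-ER4 lists, against 93.7 and 93.6 in the G1E lists, so the transporter and surface genes stood near the genome and the skeleton genes above it. The list 1 peaks that set the Spnb1 value, at 99.1 in G1E-ER4 and 99.96 in G1E, lay in an intron of its neighbour Plekhg3, where G1E-ER4 list 2 had no peak. Add2 was the skeleton gene that did not stand above the genome, with 84.0 and 89.1 in the G1E-ER4 lists, against 86.1 and 91.1 in the G1E lists. The gap between sets averaged 3.71 points in G1E-ER4 and 7.18 in G1E, but it was 0.53 and 1.17 points once peaks at least 3 times as wide as the median of their list were left out of the ranking, and skeleton windows cover 565.8 kb against 311.3 kb. These are named genes and not replicates, so the gap was not tested.

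**Figure D2:**
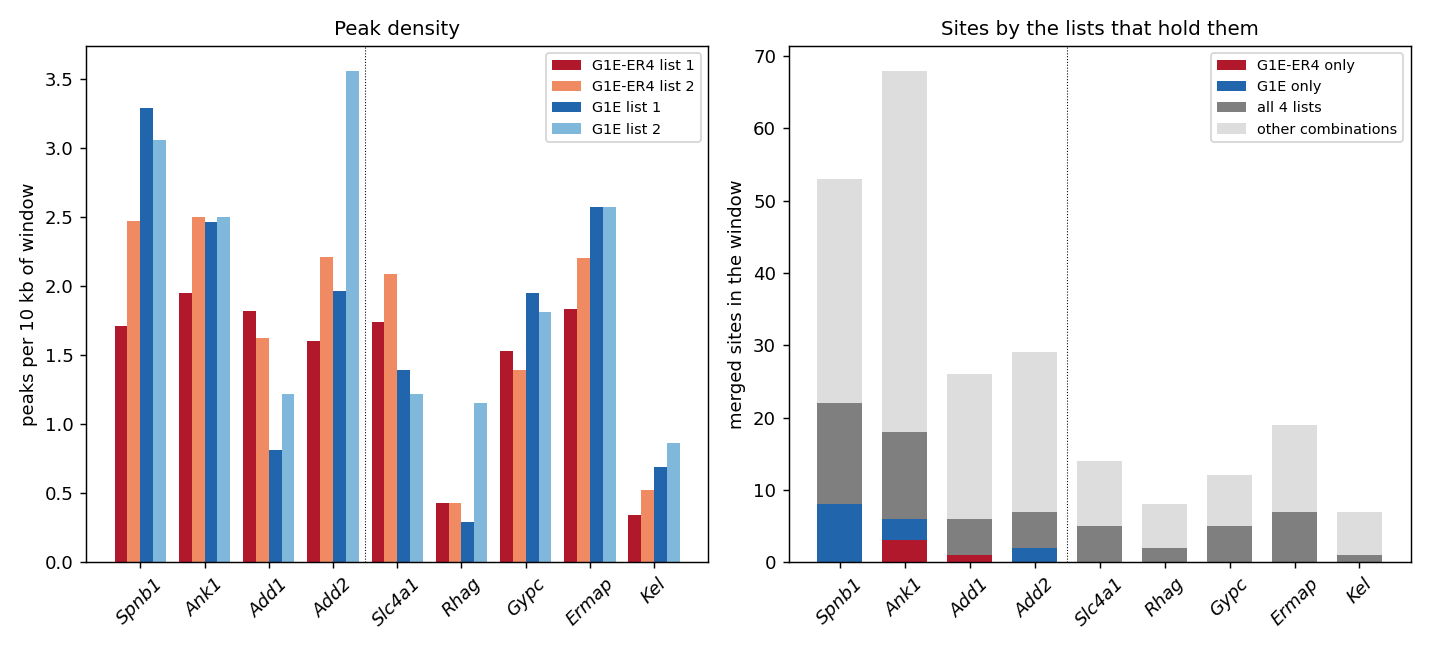
Peaks per 10 kb of each gene's window in the 4 lists (left) and the number of merged sites by the lists that hold them (right), with skeleton genes left of the dotted line. Spnb1 has 8 G1E-only and 0 G1E-ER4-only sites, Ank1 has 3 of each, and the 5 transporter and surface genes have none of either.

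Merging peaks that overlap by at least 1 bp gave 236 sites at the 9 genes, and most did not separate the states. Peaks in all 4 lists were found at 56 sites (23.7%, against 15.7% of 188044 sites in the genome), and 100 sites had a peak in 1 list only. G1E-ER4-only sites, which had a G1E-ER4 peak from each list and none from G1E, numbered 4 (1.69%, against 2.35%). G1E-only sites numbered 13 (5.51%, against 3.99%), and 8 of them were at Spnb1 (15.1% of its sites). Without Spnb1 they numbered 5, with 3 at Ank1 (4.41% of its sites), 2 at Add2 (6.90%) and none at any other member. Among merged sites, the share above that of the genome therefore rests on Spnb1. All 17 one-state merged sites were at skeleton genes, 176 sites in all, and none at the 60 sites of transporter and surface genes. These sites were weak, with a median percentile of 32.6 for the G1E-ER4-only sites and 28.1 for the G1E-only sites, against 83.9 for the 56 shared ones. The transporter and surface genes had a larger share of sites in all 4 lists, at 33.3% against 20.5% at the skeleton genes.

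Of the 56 shared sites, 5 (8.93%) were higher and 8 (14.3%) lower in G1E-ER4, by at least 10 points on average and without overlap. Over the genome 10.4% of shared sites were higher and 8.88% lower, and 3 of the 8 lower member sites were on chromosome 12. The balance depended on the lists used. Without G1E-ER4 list 1, 21 sites were higher and 13 lower, and without G1E list 1, 10 were higher and 11 lower. Without G1E-ER4 list 2 the counts were 7 and 16, and without G1E list 2 they were 7 and 12. With a list left out the rule is looser, and genome shares under it were not computed. The 5 higher sites were 2 at Ank1 and 1 each at Add1, Slc4a1 and Gypc. The 8 lower ones were 3 at Spnb1, 2 at Add2 and 1 each at Ank1, Slc4a1 and Ermap. Counted by summit instead of by merged site, with summits within 150 bp joined, 9 of 431 member positions (2.09%) were G1E-ER4-only and 25 (5.80%) were G1E-only, against 1.48% and 3.82% of 267989 positions in the genome. Of these 25, 12 were at Ank1 (8.39% of its positions), 10 at Spnb1 (8.13%), 2 at Add2 (4.44%) and 1 at Ermap (4.17%). Counted this way, the share above that of the genome did not rest on Spnb1 alone. Transporter and surface genes thus held 1 G1E-only position and 2 G1E-ER4-only positions, both of Slc4a1, among 86 (1.16% and 2.33%), so the split between the sets seen with merged sites was not complete when counted this way.

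**Figure D3:**
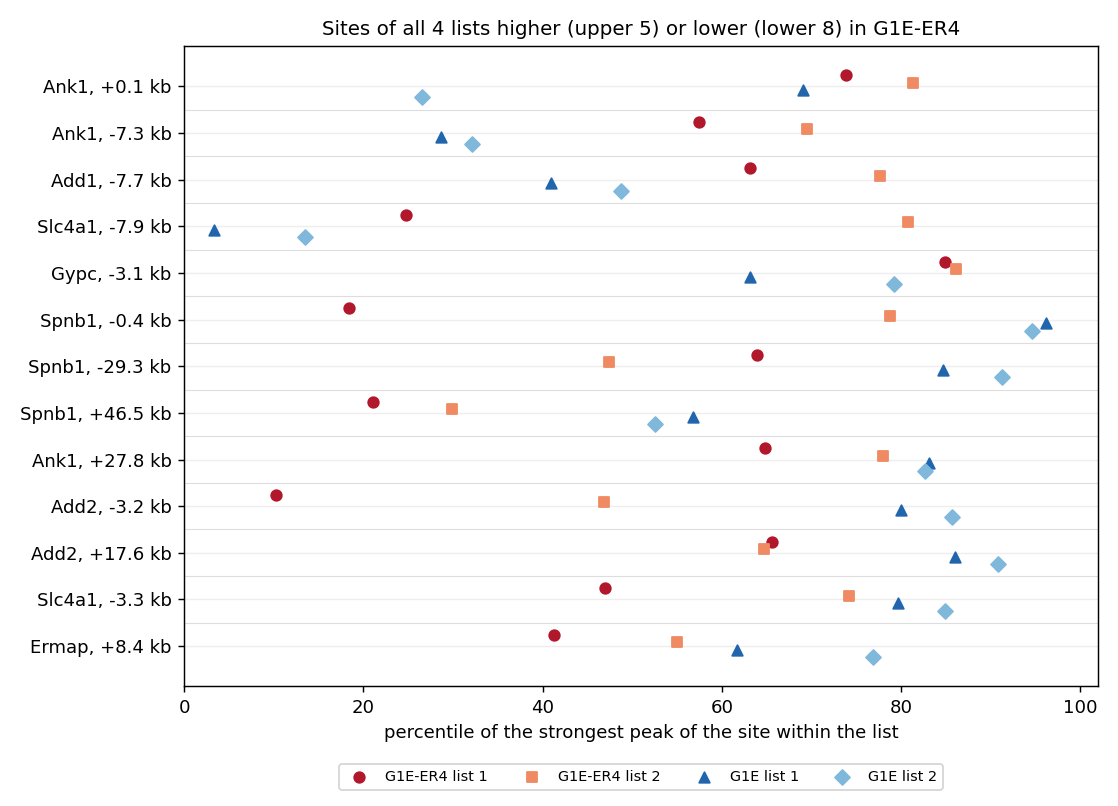
Percentiles in the 4 lists at the 13 shared sites called higher (upper 5 rows) or lower (lower 8 rows) in G1E-ER4, labelled by gene and by distance from the gene's nearest start in kb. The G1E-ER4 points lie on one side of the G1E points in each row by the rule of selection, and the G1E-ER4 lists are farthest apart at the Spnb1 and Slc4a1 sites with 18.4 and 78.8, and with 24.7 and 80.8.

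GATA letters were more common at member summits than at the summits of all peaks, in both states. Within 100 bp of the summit they stood at 31.9% and 27.6% of member peaks in G1E-ER4 lists 1 and 2, where all peaks of those lists had 20.6% and 17.0%. In G1E lists 1 and 2 they stood at 25.7% and 27.3% of member peaks, where all peaks had 16.8% and 19.5%. The composite of an E-box core and GATA, CTG then 7 to 9 bases then GATAA, to which TAL1 and GATA1 bind jointly in red cell precursors, was at 10.1% and 7.06% of member peaks for G1E-ER4 and at 7.43% and 7.73% for G1E. Among all peaks its share was 3.34% and 2.99% for G1E-ER4, with 3.26% and 3.59% for G1E. The CTCF motif went the other way, at 3.62% and 1.18% of member peaks for G1E-ER4 and 1.71% and 2.06% for G1E, where all peaks had 7.01% and 6.80% for G1E-ER4 and 7.06% and 8.74% for G1E. The ETS letters CCGGAAG did so too, at 0.588% to 1.71% of member peaks against 2.83% to 3.52% of all peaks. NFE2 letters stood at 7.65% to 9.71% against 6.63% to 7.18%. KLF letters were below all peaks only in G1E list 1, and the E-box letters CANNTG only in G1E-ER4 list 2. Member shares rest on 138 and 170 peaks of the G1E-ER4 lists, with 175 and 194 of the G1E lists, and the lists share sites, so they are not independent.

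**Figure D4:**
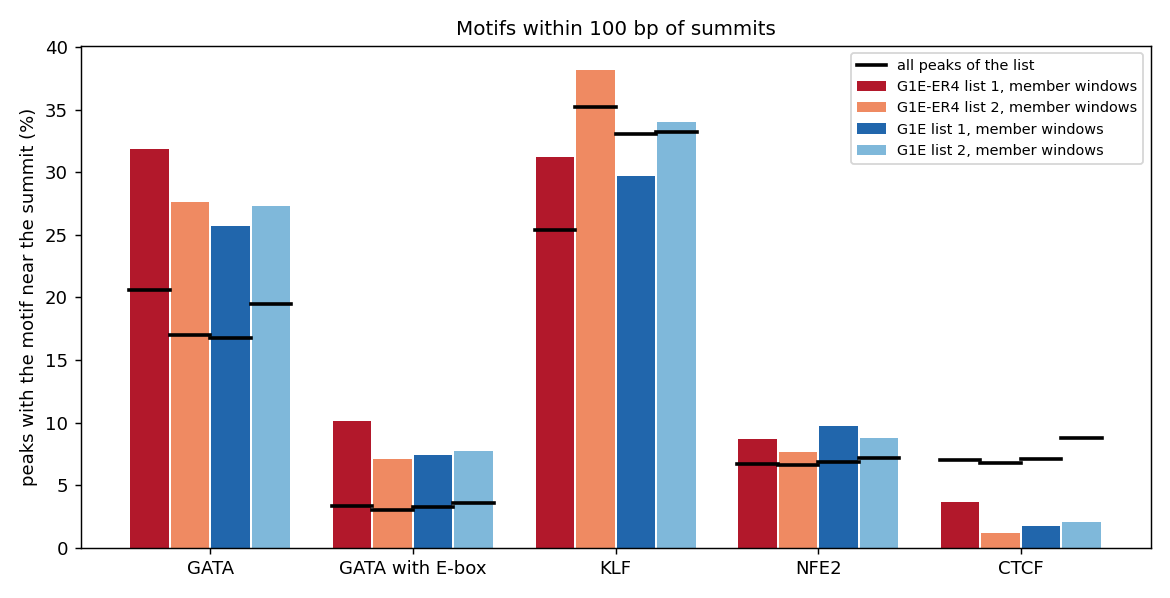
Share of peaks with each motif within 100 bp of the summit, for member windows (bars, 1 per list) and for all peaks of the same list (black lines). GATA letters stand at 25.7% to 31.9% of member peaks, above the 16.8% to 20.6% of all peaks, and the CTCF motif lies below the lines in every list.

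Promoters of 26 other red cell membrane and skeleton genes were read in the same way, and 19 (73.1%) had a peak in all 4 lists. The 4 with the highest mean percentile over the lists that held them were Bsg, which encodes basigin, Tpm1, an actin-binding tropomyosin, Add3, the third adducin, and Slc2a1, the glucose transporter. Bsg stood at 98.7 in G1E-ER4 list 2 against 99.4 and 98.0 in the G1E lists, with no summit at a start in G1E-ER4 list 1. Tpm1 stood at 98.7 and 97.9 in the G1E-ER4 lists against 98.4 and 98.1 in the G1E lists. Add3 stood at 97.9 and 97.0 in the G1E-ER4 lists against 98.0 and 97.5 in the G1E lists. Slc2a1 stood at 92.4 and 97.8 in the G1E-ER4 lists against 98.0 and 98.1 in the G1E lists. The states overlapped at Tpm1 and Add3 and not at Slc2a1. Spna1, the alpha-spectrin partner of Spnb1, is given as well, though its values had been seen, and stood at 50.0 and 69.9 in the G1E-ER4 lists against 47.9 and 53.7 in the G1E lists. The 7 genes that missed at least 1 list were Tmod1, Rhd, Aqp1, Kcnn4, Icam4, Bsg and Xk.

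Of those 7, Kcnn4, the calcium-gated potassium channel of red cells, was the one that split by state, with no promoter peak in either G1E-ER4 list against percentiles of 88.8 and 89.7 in the G1E lists. The share of all genes whose promoter splits in this way was not computed. Aqp1, the water channel, had a peak only in G1E-ER4 list 2, at 57.1, and Icam4 only in G1E list 1, at 94.5. Bsg and Xk, whose human protein is linked to Kell, missed G1E-ER4 list 1, while Tmod1 and Rhd missed G1E list 2. Among 16 relatives of the members used mainly in other tissues, such as Spnb2, Ank2 and Slc4a2, 7 (43.8%) had a promoter peak in all 4 lists, close to the 45.6% of all genes. The 9 that missed at least 1 list were Slc4a3, Mme, Rhbg, Ece1, Epb4.1l2, Epb4.1l3, Epb4.1l4a, Spnb3 and Ank3, and Ank3 had no promoter peak in any list. Slc4a3 split by state in the opposite direction to Kcnn4, at 86.4 and 76.7 in the G1E-ER4 lists with no peak in the G1E lists. Epb4.1l4a split in the same direction as Kcnn4, with no peak in the G1E-ER4 lists against 35.9 and 12.7 in the G1E lists. The 4 of highest mean rank were Spnb4, Slc4a2, Spna2 and Ank2, with mean percentiles of 97.7, 97.3, 95.2 and 84.8.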

How the data were processed

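Per the labels and the design text of the series, ends cut by DNase I at 3 concentrations were captured from nuclei as 20-base tags and aligned to mm9 with Bowtie, a tag with several matches being kept at its best place. Lanes were combined per replicate, and F-seq density was cut into peaks by a gamma fit, separately for each list. The sources used here give neither tool versions nor depth, so precision cannot be stated. The deposited peak value is the authors' density signal, and the deposited summit offset was added to the peak start. Percentiles of signal within each list were computed with Python 3.11.15, pandas 2.3.3 and NumPy 2.4.6 and plotted with matplotlib 3.10.9. The code for classing sites was run on simulated sites that were well separated and differed little between lists of a state. That run checks the code only and cannot show how the classes fare at crowded sites or with the spread of the real lists.

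Peaks overlapping by at least 1 bp were merged. A promoter peak has its summit within 1000 bp of a start of a protein-coding transcript in GENCODE vM1. A shared site is called higher or lower where both lists of one state lie beyond both of the other and the means are at least 10 points apart. Coordinates are 1-based on mm9, and sequences come from the NCBIM37 genome. With 1 sample per state no test was made. Members, lists and motifs were chosen with earlier results of these data known. Named sites were drawn mainly from the promoter sites, the strongest site away from starts, and the one-state and shifted sites of each member. Not all of these are given. For some members, such as Add1, the strongest site away from starts is left out, and the one-state sites of Spnb1 are only counted. Genes named from the further lists are those whose promoter missed a list and the 4 of highest mean rank. Alternatives were other windows, merging rules, start distances and thresholds, and each list left out.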

Additional observations from a re-analysis of the deposited data

How the results depend on the processing

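No paired analysis was possible because each state has 1 sample and list numbers name no shared culture. Counts of one-state and shifted sites depended on the rules, and the counts are small. G1E-ER4-only sites numbered 4 as reported, 9 by summits within 150 bp and 11 by 50% reciprocal overlap. G1E-only sites numbered 13 as reported, 20 in windows of 50 kb, 5 with peaks joined across 150 bp, 25 by summits, 21 by reciprocal overlap, 3 among the strongest 50% of peaks and 5 without Spnb1, an alternative chosen after seeing the data. Sites of all 4 lists numbered 56 as reported, 35 by summits and 11 by reciprocal overlap. Higher and lower sites numbered 5 and 8 as reported, 3 and 5 in gene bodies, 3 and 4 by summits and 2 and 2 among the strongest 50%, and lower sites numbered 5 without Spnb1. Leaving out 1 list at a time gave 4 to 36 G1E-ER4-only sites, 19 to 55 G1E-only sites, 59 to 81 sites of all remaining lists, 7 to 21 higher and 11 to 16 lower sites, with 21 higher against 13 lower without G1E-ER4 list 1. A single list of a state defines more one-state sites by construction. Without G1E-ER4 list 1 there were 36 G1E-ER4-only sites, and without G1E list 1 there were 55 G1E-only sites. The direction of the 13 shifted sites is fixed by the rule that chose them, whichever list is left out, but 4 of them fell under the 10 points of a call. These were the first Ank1 start (8.56 without G1E list 2), the Ank1 site beyond the 3′ end (-4.95 without G1E-ER4 list 1 and -5.95 without wide peaks), the nearer Slc4a1 site (-8.09 without G1E-ER4 list 1) and the Gypc site (6.32 without G1E list 1). The internal Spnb1 site moved from -46.79 to -16.63 without G1E-ER4 list 1 and -76.95 without list 2, the farther Slc4a1 site from 44.36 to 72.40 and 16.33, and the upstream Add2 site from -54.30 to -35.96 without list 1. The Ermap intron site moved from -21.16 to -13.56 without G1E list 2. Members with a promoter peak in all lists numbered 7 or 8 under every alternative.

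The gap in best percentile between skeleton and surface genes was 3.71 points in G1E-ER4 and 7.18 in G1E. It was 1.68 and 4.34 in windows of 50 kb, 17.98 and 10.8 in gene bodies, 7.46 and 12.3 for promoter peaks only, and 0.53 and 1.17 without wide peaks. In 2 alternatives chosen after seeing the data it was 4.55 in G1E without repeated sequence, and 6.46 in G1E-ER4 and 10.1 in G1E without promoters of other genes. The gap in G1E peaks per 10 kb was 1.04 as reported, 0.68 with 10 kb, 1.12 with 50 kb and 0.61 with 0 kb on each side. With 1 list left out, the gaps in best percentile were 3.21 to 4.21 in G1E-ER4 and 6.69 to 7.67 in G1E, and the gaps in peaks per 10 kb were 0.65 to 1.01 in G1E-ER4 and 1.00 to 1.09 in G1E. The cause of these movements was not tested.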
